A study of Mus musculus with 29 samples.

Results

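Dense clusters of binding regions for the glucocorticoid receptor (GR) in mouse liver were described from the deposited peak lists. Peaks of the 6 GR ChIP-seq lists that overlapped by at least 1 bp were merged into 15329 regions, and regions whose centres lay at most 5 kb from the next on the same chromosome were chained. A dense cluster is a chain of at least 4 regions, so the members were selected on the positions of GR peaks. The rule kept 1772 regions, 11.6% of all, in 391 clusters, and the other 13557 regions serve as comparison.

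GR was mapped in livers of wild-type mice (WT, labelled GR+/+) and of mice with GRdim, a mutated receptor whose dimerization is known to be impaired. All animals were males of 12 weeks, littermates on a BALB/c background kept under a 12 h light cycle. Livers were taken at 6am, the start of the light phase, at 6pm, the start of the dark phase, or at 6am once prednisolone at 12 mg/kg had been given from subcutaneous pellets for 24 h. Each genotype had 1 GR ChIP-seq list and 1 ChIP-exo list per condition, and C/EBPβ was mapped by ChIP-seq in WT alone. Every list came from 2 pooled replicates of whole liver tissue, so each value below is a single measurement and has neither replicate error nor a p-value. The labels do not say how many animals a pool held. In whole tissue, binding in fewer cells and weaker binding per cell cannot be told apart.

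GR is a hormone-activated nuclear receptor that responds to corticosterone and to drugs such as prednisolone. It binds DNA as a dimer at palindromic elements, and at other places through shorter elements or together with other factors. In liver it acts on genes of glucose, amino acid and lipid metabolism, and circulating corticosterone in mice rises toward the dark phase. C/EBPβ is a leucine zipper transcription factor that is abundant in hepatocytes and shares many regions with GR. Regulatory regions of a gene often lie in groups, and stretches of closely spaced, strongly bound enhancers have been called super-enhancers in other work. The mm9 sequence and annotation were not used here, so clusters are given by mm9 position, counted from 1, without gene names.

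The lists differ in length, which sets what a cluster can contain. For GR the WT lists of 6am, 6pm and prednisolone held 5781, 14270 and 4304 peaks, and those of GRdim 3183, 7440 and 3208. The C/EBPβ lists held 21644, 26226 and 21941 peaks. The ChIP-exo lists held between 14391 borders (GRdim, 6am) and 66573 borders (WT, 6am), from libraries of 31.6 to 55.7 M tags. Peaks carry a score by the authors of unstated unit, which is never below 2.00. The score was used only within a list or side by side. How deeply the ChIP-seq libraries were sequenced is unknown here.

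Most clusters were small. There were 254 clusters of 4 regions, 95 of 5, 23 of 6, 13 of 7, 2 of 8 and 4 of 9. From the first to the last base a cluster spanned 7578 bp at the median, with quartiles of 5616 and 9555 bp and extremes of 1687 and 22648 bp. Neighbouring centres in a cluster lay 1855.5 bp apart at the median (quartiles 902.5 and 3222 bp). Gaps of at most 500 bp made up 8.76% of the 1381 gaps and gaps of 4 to 5 kb 12.5%. The members had a median width of 219 bp and filled 13.3% of the 3015 kb that the clusters spanned, so most of a cluster was sequence without a listed GR peak.

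Just outside the threshold stood 626 chains of 3 regions. They spanned 4383 bp at the median, against 6488 bp for the clusters of 4. A region was in 2.82 GR lists on average in chains of 3 and in 2.84 lists in clusters of 4, and 59.6% and 60.2% of the regions were listed in GRdim. The threshold therefore separated chains that were much alike in their GR lists. The cluster of 4 with the widest gap lay at chr19:31961727-31971492, with 4979 bp between neighbouring centres and no score above 3.11.

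Clusters lay on every autosome. Members were 16.1% of the regions of chromosome 8, 15.8% of chromosome 17 and 15.7% of chromosome 9, and 7.28% of chromosome 19 and 7.64% of chromosome 13. Chromosome X had 121 GR regions, against 512 or more on each autosome, and no cluster. A count of 0 would allow a share of up to 2.48% if regions were independent. Regions of a cluster are not, so the limit is too low.

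**Figure D1:**
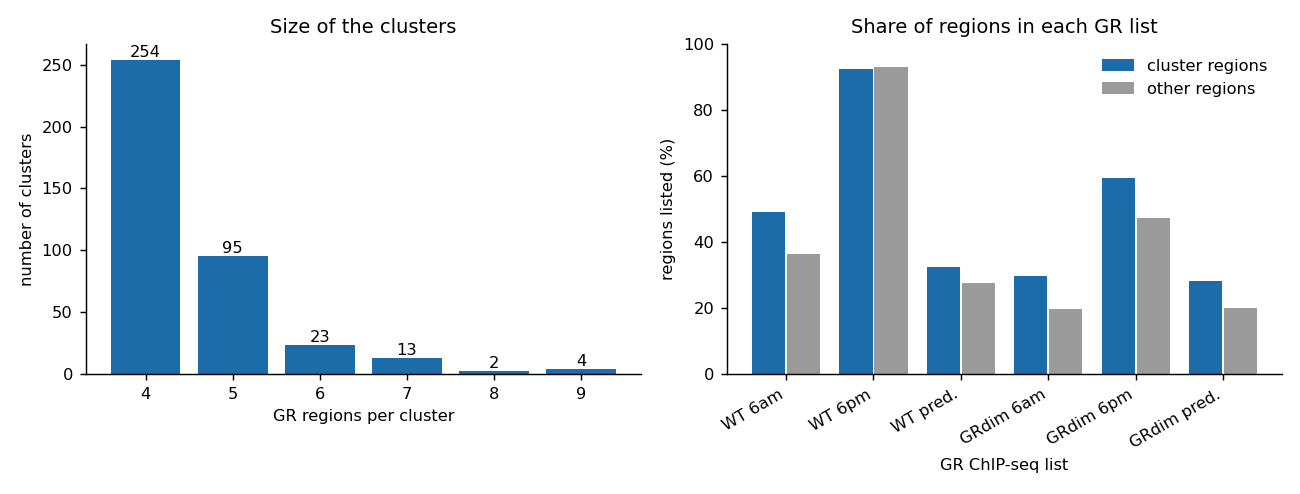
Left, number of clusters (y axis) by GR regions per cluster (x axis). Right, percentage of the 1772 cluster regions (blue) and of the 13557 other regions (grey) in each of the 6 GR ChIP-seq lists, where the cluster regions are the higher in every list but WT 6pm (92.6% against 93.2%).

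The GR lists chose the members, so their make-up is a description and was not tested. In the WT 6am list stood 49.1% of members (37.7% of all 15329 regions), 92.6% in the WT 6pm list (93.1% of all) and 32.3% in the WT prednisolone list (28.1% of all). For GRdim the shares were 29.6% at 6am (20.8% of all), 59.3% at 6pm (48.5% of all) and 28.1% after prednisolone (20.9% of all). Regions outside clusters had lower shares in each list but the WT 6pm list. A member was in 2.91 lists on average and another region in 2.44.

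Scores within a list were higher in clusters as well. In the WT 6pm list the median score was 4.06 for members and 3.29 for other regions, and 50.9% of listed members scored at least 4 against 35.1% of the others. The medians were 3.12 and 2.85 in WT at 6am and 3.04 and 2.93 after prednisolone. In GRdim they were 2.79 and 2.71 at 6am, 3.09 and 2.85 at 6pm, and 2.71 and 2.56 after prednisolone. Score went with chain size outside clusters too. The median of a region's highest score was 3.07 in chains of 1, 3.51 in chains of 2 and 3.73 in chains of 3. It was 3.76 in clusters of 4 and 3.91 in clusters of 5. Higher scores than in isolated regions were thus not particular to clusters. The highest single scores in all 6 lists lay outside clusters, as at 6pm in WT with 26.35 against 22.44 for the highest member.

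By genotype, 1036 members (58.5%) were listed in both WT and GRdim, 671 (37.9%, against 48.6% of all regions) in WT alone and 65 (3.67%, against 3.09% of all) in GRdim alone. Thus 62.1% of members were in some GRdim list, against 51.4% of all regions. All 6 lists held 278 members (15.7%, against 10.1% of all). Regions found in the WT 6pm list and nowhere else were 26.9% of members and 36.2% of the other regions. Of the WT peaks in clusters, 54.5% at 6am, 60.1% at 6pm and 62.3% after prednisolone were listed in GRdim under the same condition. Outside clusters these shares were 46.3%, 48.0% and 46.4%.

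After prednisolone, 90 members were new in WT, meaning listed after treatment and not at untreated 6am, and 387 were lost, the reverse. New regions were 5.08% of members (7.22% of all regions) and lost regions 21.8% (16.9% of all). Of the members listed in WT at 6am, 55.5% were listed again after prednisolone, and 55.3% outside clusters. Of those listed after prednisolone, 84.3% had been listed at 6am, and 72.7% outside clusters. The share of 6am regions listed again was thus alike in both sets, while regions listed after treatment had more often been listed before it in clusters.

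Members of a cluster differed among themselves. Ranked within each cluster by WT 6pm score, the regions of rank 1 to 4 had median scores of 6.76, 4.79, 3.51 and 2.78. Their shares listed in GRdim were 87.2%, 75.1%, 55.9% and 38.3%, and their shares in all 6 lists 40.4%, 19.5%, 7.61% and 3.68%. The region of rank 1 was in 4.54 lists on average and that of rank 4 in 1.92. The ranking itself orders the scores, and score went with listing outside clusters too. There, 13.4% of regions with a WT 6pm score of 2 to 2.5 and 95.9% of those at 10 and more were listed in GRdim. The fall with rank is therefore not particular to clusters. The score of rank 1 was 1.34 times that of rank 2 at the median (quartiles 1.12 and 1.71), and at least 2 times in 58 of 389 clusters. The region of rank 1 was at an end of its cluster in 156 of 391 clusters (39.9%), while end places were 44.1% of all places.

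Among the 254 clusters of 4, 13 had no region listed in GRdim, 44 had 1, 70 had 2, 80 had 3 and 47 had all 4. Over all clusters, 15 had no GRdim region and 62 had every region listed in GRdim. Regions in all 6 lists were absent from 202 clusters, and in 1 cluster every region was in all 6. Of the 1381 pairs of neighbouring regions, 568 were both listed in GRdim, 212 were both not, and 601 (43.5%) were mixed. Pairs in smaller chains were not counted, so the mixing is not shown to be particular to clusters.

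The largest cluster lay at chr9:48537673-48560320, with 9 regions over 22648 bp. Of these, 6, 8 and 7 were in the WT lists of 6am, 6pm and prednisolone, and in GRdim 4, 6 and 3. The region with the highest score, at chr9:48545625-48545847, scored 15.83, 21.19 and 13.44 in the WT lists of 6am, 6pm and prednisolone, and 3.76, 7.59 and 3.83 in GRdim. Before it, the region at chr9:48544526-48544725 was listed in WT after prednisolone alone, with 5.74. At the far end, the region at chr9:48560121-48560320 had a GR score of 3.40 at WT 6pm alone but C/EBPβ scores of 9.24, 7.95 and 7.40 under the 3 conditions. The 9 regions thus ranged from 3 in all 6 GR lists to 2 in a single list.

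The other clusters of 9 lay at chr2:32264012-32280093, at chr9:46031238-46048835 and at chr11:53259784-53277745. Their highest WT scores were 10.09, 9.03 and 7.45, all at 6pm, and 6, 7 and 4 of their regions were listed in GRdim. The 2 clusters of 8 lay at chr3:89700499-89717270 and at chr4:149163962-149174517, with highest scores of 14.00 and 7.16. Clusters of like size thus differed widely in score. Of the 13 clusters of 7, the 4 with the largest sum over regions of the highest score lay at chr16:38279922-38289234, chr15:88688446-88706448, chr11:101212503-101229024 and chr6:90413524-90427115, and their highest WT scores were 18.16, 15.87, 14.51 and 17.50.

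The highest score of any member was found in the cluster at chr17:28649745-28660233. Its region at chr17:28649745-28650003 had WT scores of 11.68 at 6am, 22.44 at 6pm and, once treated, 19.14, and in GRdim 6.64 at 6pm and 5.76 after prednisolone, with no peak at 6am. All 6 of its regions were listed in WT after prednisolone, against 4 at 6am and 3 at 6pm, and 2 of them, with scores of 6.19 and 6.61, were in no other GR list. A further region, at chr17:28655904-28656108, scored 2.06 at 6am and 8.89 after prednisolone. Over all clusters, by contrast, the WT list with the most members was that of 6pm.

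A contrasting cluster lay at chr9:106165685-106176042. All 6 of its regions were in all 3 WT lists, and each scored highest at 6pm. Its leading region, at chr9:106169329-106169573, scored 15.53, 21.74 and 9.61 in the WT lists of 6am, 6pm and prednisolone and 10.20, 10.22 and 5.95 in GRdim. The 5 others scored 3.04 to 6.36 in the WT list of 6am, 7.42 to 14.14 in that of 6pm and 2.40 to 5.29 in that of prednisolone. All 6 were in some GRdim list, and 3 in all 6 lists.

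The remaining clusters with the highest WT scores lay at chr1:74054361-74061473 and at chr15:81661661-81670346. On chromosome 1 the last of 5 regions scored 19.22, 21.30 and 20.98 in WT and 10.02, 13.59 and 8.62 in GRdim, while no other region of the cluster exceeded 7.64. On chromosome 15 the last of 5 regions scored 14.92, 20.54 and 13.32 in WT, and the region at chr15:81664787-81664986 was listed in WT after prednisolone alone, with 5.33. The next highest region there scored 12.06 at 6pm, so both clusters carried 1 region well above the rest.

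Of the 15 clusters without a GRdim region, the one with the highest score lay at chr14:66335083-66339477. Its 4 regions were all listed in WT at 6pm, and its last region had WT scores of 4.19, 9.98 and 9.01 in the 6am, 6pm and prednisolone lists. The next 4, at chr8:10911042-10914848, chr11:112999873-113009178, chr3:98481775-98491899 and chr11:48902950-48907512, had highest scores of 4.75, 4.64, 4.24 and 3.79. These 4 clusters were made of low-scoring peaks.

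GRdim-only regions occurred singly in 44 clusters and in larger number in 10. Of the 65 regions, 59 were in the GRdim 6pm list, 9 in that of 6am and 10 in that of prednisolone, so most rested on the longest GRdim list. The highest-scoring, at chr1:93333274-93333496, scored 5.13 at 6pm and 2.64 after prednisolone in GRdim. Its centre lay 334 bp from that of a region with WT scores of 7.69, 9.87 and 9.04. More widely, 23 of the 65 (35.4%) lay within 500 bp of a region listed in WT, against 13.5% of the 408 GRdim-only regions outside clusters, where regions are farther apart by the rule.

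The cluster with the most GRdim-only regions had 3 and lay at chr2:146136109-146138870. All 4 of its regions were in the GRdim 6pm list, with scores of 2.74, 2.04, 2.92 and 2.77, and 1 was in the WT 6pm list with 2.34. Another cluster, at chr2:160152861-160160041, had 2 such regions beside 2 that were in all 6 lists. Its GRdim-only region at chr2:160158831-160159041 scored 2.85 at 6pm and 3.38 after prednisolone. The GRdim-only regions of these 2 clusters scored below the median of listed members at 6pm, which was 3.09. The score of 3.38 after prednisolone was just above the upper quartile of listed members in that list, 3.35.

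New regions after prednisolone were absent from 312 clusters, single in 69 and more numerous in 10. The cluster with the most lay at chr4:62999797-63008009. None of its 4 regions was in the WT 6am list, all 4 were listed at 6pm with scores of 2.16 to 6.83, and 3 after prednisolone with 2.81, 3.64 and 3.98. In that cluster the regions new against 6am had thus also been listed in untreated livers at 6pm.

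Lost regions were more widespread and absent from 153 clusters. In the cluster at chr11:115949597-115961998 every region was lost. Its 4 regions scored 2.25, 2.55, 2.89 and 3.24 in WT at 6am and 4.79, 4.31, 4.42 and 5.08 at 6pm, and no GR list after prednisolone held any of them in either genotype. The clusters at chr2:103685614-103691625 and at chr4:149163962-149174517 also lost 4 regions each, of 5 and 8. In these 3 clusters no WT 6am score exceeded 4.68.

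**Figure D2:**
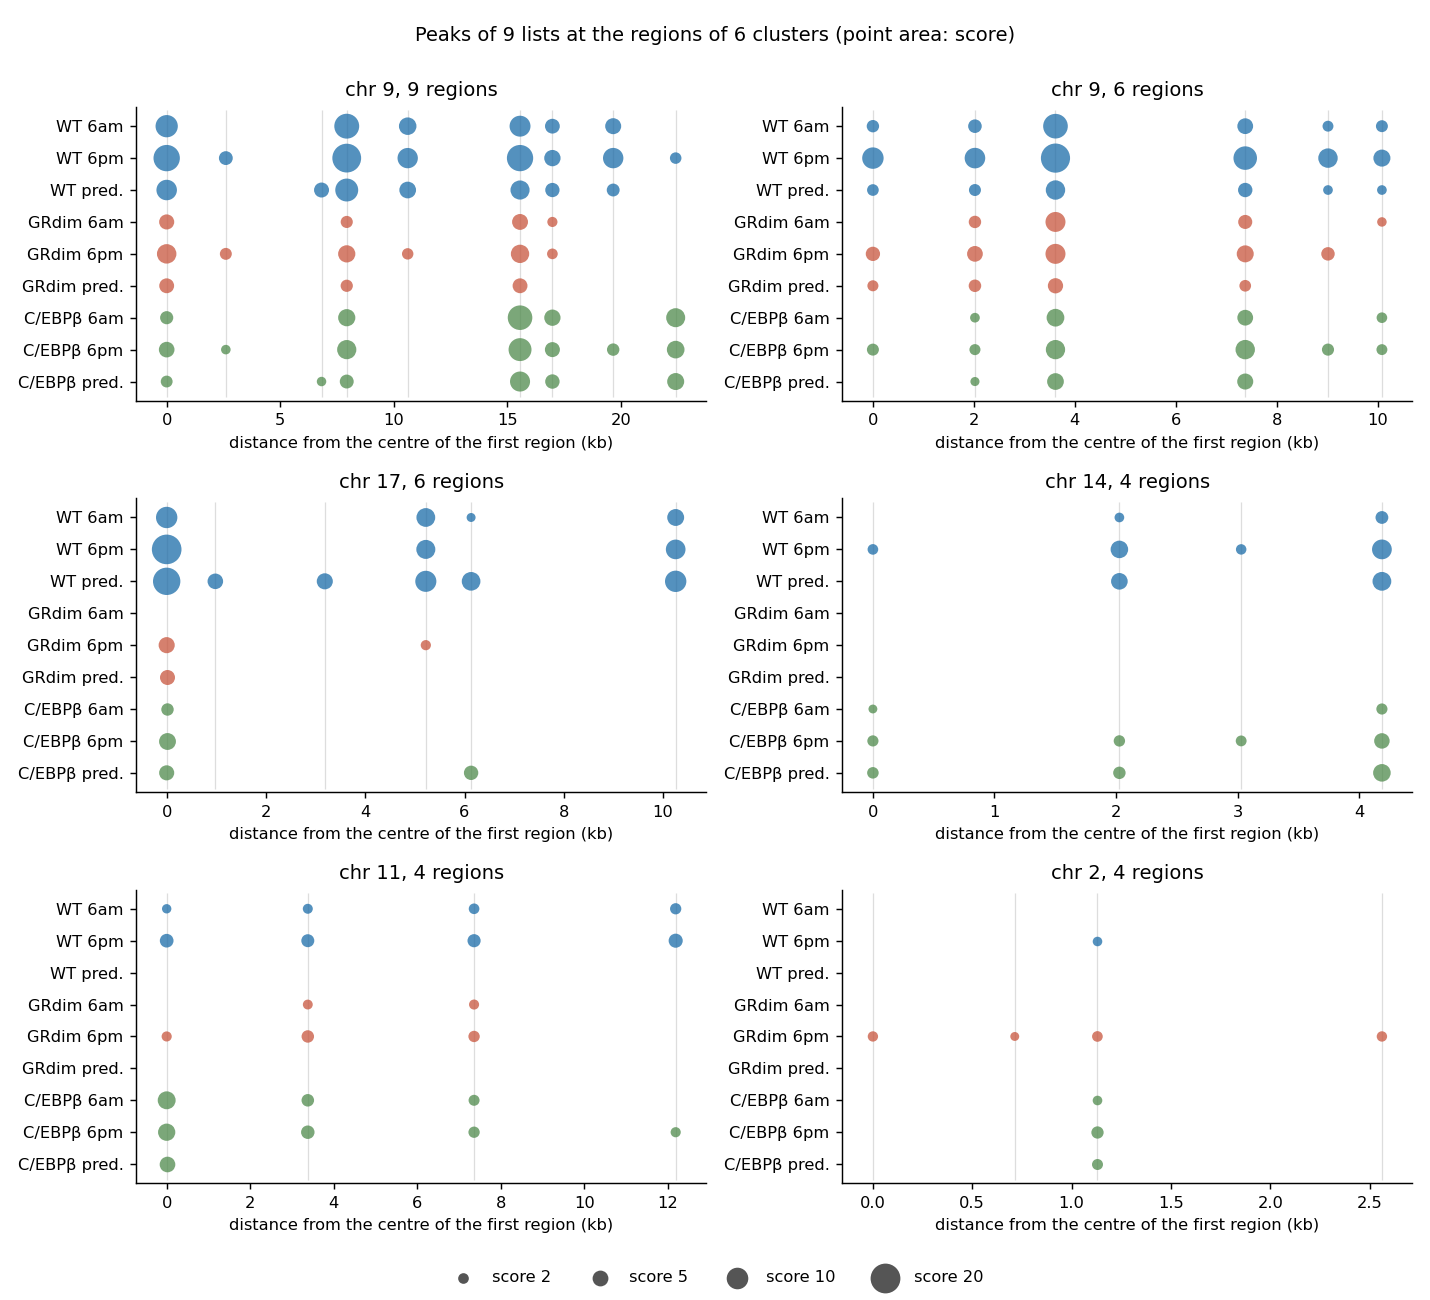
Peaks of the 9 ChIP-seq lists (rows) at the regions of 6 clusters, by distance of the region's centre from the centre of the first region in kb (x axis), with the area of a point standing for the authors' score. The cluster on chromosome 17 has its most GR peaks after prednisolone (6 regions), the one on chromosome 14 has none in GRdim, the one on chromosome 11 has none after prednisolone, and the one on chromosome 2 has 4 in GRdim at 6pm.

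C/EBPβ was not used to choose the clusters, and its peaks were compared between members and other regions. A C/EBPβ peak of any condition overlapped 1392 of 1772 members (78.6%, 95% Wilson interval 76.6 to 80.4) and 83.0% of other regions (82.4 to 83.6), beside 82.5% of all regions. The difference of members minus others was -4.47 percentage points, with a 95% Newcombe interval of -6.54 to -2.52. At 6am 63.0% of members and 67.9% of others held a peak (67.3% of all), a difference of -4.90 points (-7.30 to -2.54). At 6pm the shares were 76.2% and 80.3% (79.8% of all), a difference of -4.06 points (-6.21 to -2.02), and after prednisolone 54.4% and 59.0% (58.4% of all), a difference of -4.56 points (-7.03 to -2.11). C/EBPβ was thus somewhat less frequent among all members under each condition. Among regions of the WT GR list of the same condition, the difference was -5.43 points (-8.58 to -2.47) at 6am and -4.16 points (-6.27 to -2.18) at 6pm. After prednisolone 75.9% of such members and 76.2% of such others held a peak, a difference of -0.283 points (-4.19 to 3.32). The intervals cover the counting of regions only, and regions of 1 cluster are neighbours and not independent.

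This difference did not hold under every setting. With the higher-scoring 50% of each C/EBPβ list it was -0.418 points (-2.88 to 2.02) for any condition and 0.294 points (-2.18 to 2.75) at 6pm. With GR lists of equal length it was -3.27 points (-8.01 to 0.639), and for regions whose nearest neighbour lay over 1 kb away -1.81 points (-4.33 to 0.499). With chaining at 10 kb the differences at 6am, at 6pm and after treatment were -0.911, -1.22 and -1.02 points, each with 0 inside its interval. Other settings widened the difference for any condition. With other regions weighted to the members by number of GR lists it was -6.74 points (-8.64 to -4.845). Weighted by WT 6pm score it was -6.62 points (-8.50 to -4.75). Where members did hold a C/EBPβ peak, its median score was 4.86 at 6am, 5.09 at 6pm and 4.81 after prednisolone, against 4.62, 4.94 and 4.74 in the other regions.

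In percentage points, the gap in C/EBPβ was widest where GR was listed seldom. Where nearly all regions hold a peak, little room is left for such a gap. The change of the gap with the number of lists was not tested, and no relative measure was computed. Among regions in 1 GR list, 64.4% of members and 75.0% of others held a C/EBPβ peak, a difference of -10.6 points (-14.7 to -6.62), and in 2 lists 72.5% and 82.9%, a difference of -10.4 points (-15.6 to -5.68). In 3 lists the difference was -4.15 points (-9.79 to 0.615) and in 4 lists -6.77 points (-12.6 to -2.39). In 5 lists it was -0.816 points (-5.46 to 2.06), and in all 6 lists 97.8% of members and 97.9% of others held one, with an interval of the difference from -2.58 to 1.48 points. Members shared by all lists were therefore nearly all marked, in clusters as outside them.

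The 6pm scores gave much the same order in percentage points. At WT 6pm GR scores of 2 to 2.5, 59.0% of members and 72.0% of others held a 6pm C/EBPβ peak (-13.0 points, -19.1 to -7.20). At scores of 4 to 6 the shares were 84.8% and 91.4% (-6.55 points, -10.5 to -3.22), and at scores of 10 and more 95.6% and 97.2% (-1.63 points, -7.28 to 1.67). The share was higher at higher GR scores in both sets, and at the highest scores the interval of the difference includes 0. Whether a GR peak of the lowest scores in a cluster is a separate site was not tested.

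**Figure D3:**
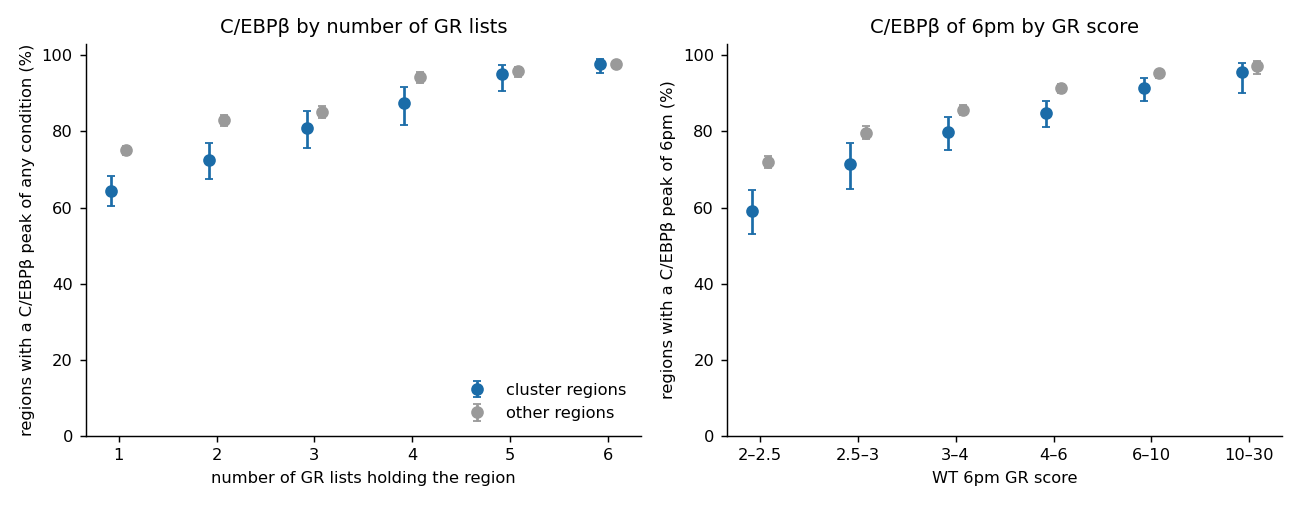
Percentage of cluster regions (blue) and other regions (grey) with a C/EBPβ peak, by the number of GR lists holding the region (left, any condition) and by WT 6pm GR score (right, C/EBPβ of 6pm), with 95% Wilson intervals. For regions in 1 list the shares are 64.4% and 75.0%, and for regions in all 6 lists 97.8% and 97.9%.

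Distance to the nearest GR region went with C/EBPβ too. Where it was at most 500 bp, 67.9% of members and 70.4% of others held a C/EBPβ peak (-2.52 points, -9.54 to 4.14). At 500 to 1000 bp the shares were 77.1% and 87.0% (-9.92 points, -14.4 to -5.79), at 1 to 2 kb 82.8% and 85.1% (-2.21 points, -6.07 to 1.30), and at 2 to 5 kb 80.3% and 85.9% (-5.59 points, -9.32 to -2.19). Regions with a very close neighbour were thus marked least often in both sets. By genotype, 89.5% of members listed in both genotypes, 65.4% of those in WT alone and 40.0% of those in GRdim alone held a C/EBPβ peak, against 92.8%, 75.8% and 49.0% outside clusters. The differences were -3.37 points (-5.48 to -1.52), -10.4 points (-14.2 to -6.75) and -9.02 points (-21.1 to 4.05).

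Every cluster had a region with C/EBPβ. In 130 clusters all regions held a C/EBPβ peak of some condition, and in 11 clusters 1 region did. As 78.6% of members and 82.5% of all regions held such a peak, clusters without one would be rare by that share alone. By rank of WT 6pm score, 93.6%, 86.6%, 77.2% and 73.0% of the regions of rank 1 to 4 held one, and 41.7% of the 132 members outside the WT 6pm list. Within the spans of the clusters lay 1223 C/EBPβ peaks of 6am, 1473 of 6pm and 1102 after prednisolone. Of these, 91.2% (89.4 to 92.6), 91.6% (90.1 to 92.9) and 87.4% (85.3 to 89.2) overlapped a GR region, although GR regions were 13.3% of the spans. Inside clusters most C/EBPβ peaks thus lay at GR regions rather than between them. The spans start and end at GR regions, and the spans of smaller chains were not compared. In chains of 2 and of 3, 84.6% and 83.2% of regions held C/EBPβ, so sharing it was not particular to clusters.

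The clusters with the most C/EBPβ peaks per kb were compact and lay on chromosome 1, at chr1:89910367-89912302, at chr1:191930013-191931787 and at chr1:37082210-37084006. Over their spans of 1936, 1775 and 1797 bp they had 6.20, 5.63 and 4.45 peaks per kb over the 3 lists. In the first of them all 4 regions held C/EBPβ under all 3 conditions, with C/EBPβ scores of 2.44 to 10.25, while its GR scores were 2.01 to 4.09. It was thus a cluster of low GR scores with C/EBPβ at every region.

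Among members without C/EBPβ under any condition, 206 of 380 (54.2%) were in 1 GR list and 6 in all 6. Outside clusters 1415 of 2301 such regions (61.5%) were in 1 list and 27 in all 6, so being seldom listed was not particular to members. A C/EBPβ peak centre lay within 500 bp of 85 of the 380 members (22.4%) and within 1 kb of 186 (48.9%), which was not compared with regions outside clusters. The highest-scoring lay at chr19:23131393-23131609, with 11.15, 10.74 and 15.27 in the WT lists of 6am, 6pm and prednisolone and 3.44, 4.71 and 3.31 in GRdim. The next, at chr17:86902918-86903188, scored 10.96, 11.25 and 12.31 in WT and 2.17, 4.04 and 3.09 in GRdim. Of the 6 highest, 5 scored highest in WT after prednisolone. The cluster on chromosome 17 that gained regions after prednisolone supplied 2 of the 6, at chr17:28654987-28655201 and at chr17:28660021-28660233. The 6 were picked by score. They were not compared in this with other members without C/EBPβ or with regions outside clusters.

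C/EBPβ was listed more often after prednisolone at new members and less often at lost and kept ones. At the 90 new members the share with C/EBPβ was 56.7% in the 6am list and 72.2% in the prednisolone list (17 gains, 3 losses). At the 387 lost members it was 65.6% before and 45.5% after treatment (2 gains, 80 losses). At the 483 kept members it was 83.6% before and 76.6% after (14 gains, 48 losses). Regions outside clusters showed the same pattern, with 45.1% before and 66.0% after at new regions, 76.6% and 55.3% at lost ones and 84.7% and 80.0% at kept ones. Of the members with C/EBPβ at 6am, 97.9% kept it at 6pm and 79.8% after prednisolone, against 98.6% and 80.6% elsewhere. The differences were -0.659 points (-1.70 to 0.0729) and -0.774 points (-3.35 to 1.62), both with 0 inside the interval. At the cluster on chromosome 11 whose regions were all lost, C/EBPβ was listed at 3 regions at 6am, 4 at 6pm and 1 after prednisolone.

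GR was also mapped by ChIP-exo, where exonuclease digestion up to the protein leaves borders on each strand. A border of some library overlapped 94.6% of members (93.5 to 95.6) and 93.6% of others (93.2 to 94.0), beside 93.7% of all regions, a difference of 1.01 points (-0.204 to 2.06). Library by library, members were marked more often. In WT the shares were 76.5% and 70.4% at 6am (71.1% of all), 80.8% and 73.3% at 6pm (74.2% of all), and 62.0% and 57.7% after prednisolone (58.2% of all). The differences were 6.11 points (3.94 to 8.17), 7.43 points (5.39 to 9.35) and 4.30 points (1.87 to 6.69).

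In GRdim the shares were 35.4% and 27.3% at 6am (28.2% of all), 61.1% and 52.5% at 6pm (53.5% of all), and 56.8% and 49.9% after prednisolone (50.7% of all). The differences were 8.09 points (5.77 to 10.5), 8.66 points (6.22 to 11.1) and 6.85 points (4.38 to 9.29). The excess in clusters depended on the regions compared. Weighting other regions to the members by number of GR lists left 2.92 points (1.18 to 4.65) in WT at 6pm. It left 0.870 points in WT at 6am and 0.609 and 1.55 points in GRdim at 6am and 6pm, these 3 with intervals that include 0. It turned the prednisolone differences to -2.16 points (-4.17 to -0.138) in WT and -0.425 points (-2.41 to 1.56) in GRdim.

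Where a peak was in the GR list of a condition, the border of that condition was about as frequent in clusters as outside in 5 of the 6 libraries. In WT the shares were 98.0% and 97.7% at 6am and 96.9% and 95.3% after prednisolone, and in GRdim 78.1% and 78.6%, 82.8% and 82.9%, and 97.6% and 97.2%. The intervals of those 5 differences include 0. In the WT 6pm list 83.2% of members and 76.6% of others held a border, a difference of 6.68 points (4.65 to 8.56). This list also had the widest gap in median score between the sets, and with the other regions weighted to the members' WT 6pm scores the difference was 0.589 points (-1.02 to 2.20).

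Summed over its regions, a cluster can be followed through the libraries in RPM, the authors' tag number scaled to library size. The median cluster had 4.72, 7.77 and 2.65 RPM in the WT libraries of 6am, 6pm and prednisolone. The sum was higher at 6pm than at 6am in 324 of 391 clusters (82.9%, against 72.2% of the chains of 2 or 3) and higher after prednisolone than at 6am in 87 (22.3%, against 28.7%). In GRdim the medians were 0.885, 2.85 and 2.24 RPM, with 327 clusters higher at 6pm than at 6am (83.6%, against 70.4% of the chains of 2 or 3) and 306 higher after prednisolone (78.3%, against 64.8%). Most clusters thus had the higher sum at 6pm in both genotypes. After prednisolone most stood lower than at 6am in WT and higher in GRdim. Each library is 1 pool, only listed borders are summed, and the GRdim 6am library was the smallest with the shortest list, so this difference has no replicate check. Members were chosen from the GR lists and 92.6% were in the WT 6pm list, so the 6pm sums are not independent of that choice. Chains of 2 or 3 sum fewer regions, and equal sums, as at 0, count as not higher.

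Between the genotypes, the WT sum was the higher in 377 clusters at 6am, in 365 at 6pm and in 210 of 391 after prednisolone. These counts are 96.4%, 93.4% and 53.7% of the clusters, and in the chains of 2 or 3 the shares were 88.1%, 82.5% and 48.1%. The median ratio of WT to GRdim, over clusters with both sums above 0, was 3.79 at 6am (quartiles 2.26 and 7.44), 2.64 at 6pm (1.73 and 4.93) and 1.06 after prednisolone (0.631 and 2.38). The sums of the genotypes were thus nearer each other after prednisolone than at the untreated times, in clusters and in the smaller chains. Of the members, 37.9% were listed in WT alone and 3.67% in GRdim alone, so a higher WT sum is not independent of how the regions were chosen. Single clusters departed from the medians. The cluster at chr17:28649745-28660233 had 74.6, 98.8 and 175 RPM in the WT libraries of 6am, 6pm and prednisolone, against 1.04, 6.71 and 11.6 RPM in GRdim.

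Other named clusters filled the range between. The largest cluster, on chromosome 9, had 70.9, 121 and 68.1 RPM in WT and 10.7, 27.5 and 13.7 RPM in GRdim. The cluster at chr9:106165685-106176042 had 38.4, 126 and 23.9 RPM in WT and 14.2, 20.5 and 13.4 RPM in GRdim. These 2 clusters had their highest sums at 6pm in both genotypes. The chromosome 14 cluster without GRdim peaks had 4.72, 19.0 and 20.8 RPM in WT and no listed border in any GRdim library. The chromosome 11 cluster whose regions were lost had 5.72, 9.58 and 0.786 RPM in WT and 0.759, 0.799 and 0.509 RPM in GRdim. Borders and peak lists were thus both empty in GRdim at the chromosome 14 cluster, and both lowest after prednisolone in WT at the chromosome 11 cluster. In GRdim the sums of the latter were low under each condition, although 2, 3 and 0 of its regions were listed.

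**Figure D4:**
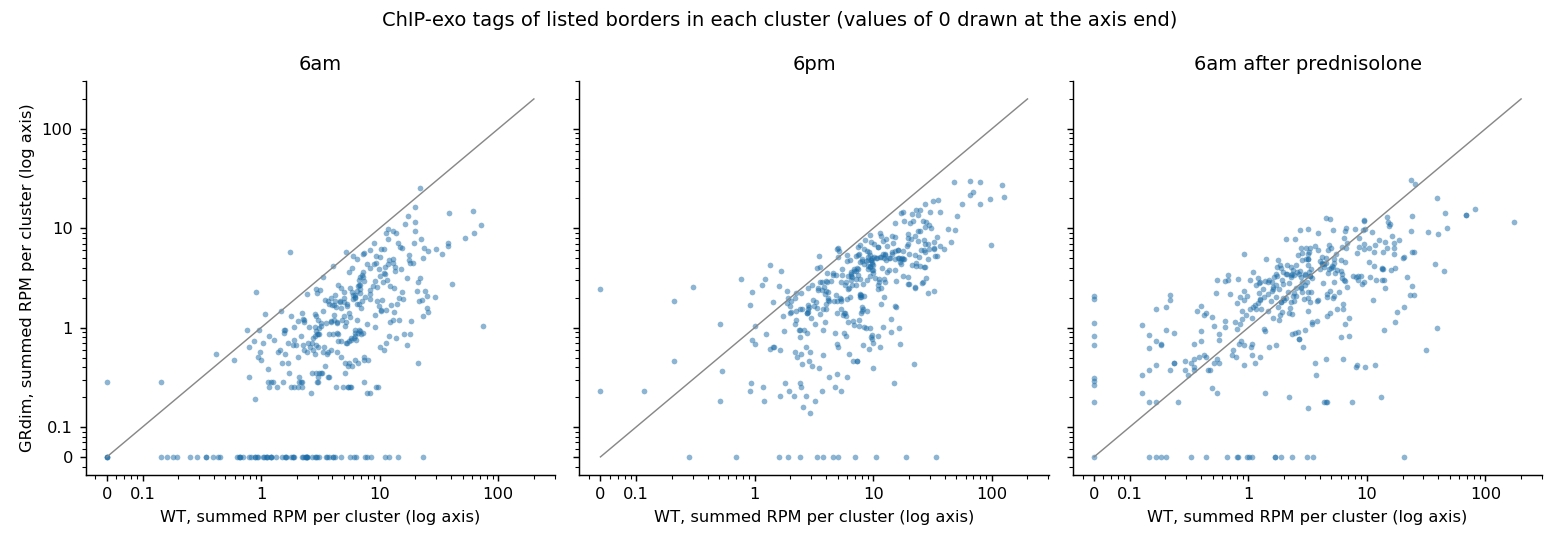
Summed RPM of listed ChIP-exo borders in each of the 391 clusters in WT (x axis) and GRdim (y axis), on log axes, with the line of equal values and with values of 0 drawn at the end of the axis. Clusters lie below the line in 377 cases at 6am and 365 at 6pm, and on both sides of it after prednisolone (210 below).

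Many members missing from a GR list held borders. Of the 671 members listed in WT alone, 276 (41.1%) overlapped a border of a GRdim library, and 39.5% of such regions outside clusters. Of the 65 members listed in GRdim alone, 45 overlapped a border of a WT library and 51 one of a GRdim library. Among all regions, 53.5% overlapped a border of the GRdim 6pm library alone and 74.2% one of the WT 6pm library alone. The shares over any GRdim or any WT library were not computed and cannot be lower. The 276 of 671 and the 45 of 65 are therefore not high, while the 51 of 65 has no matching share. Regions listed in GRdim alone outside clusters were not compared. Absence from the peak lists of a genotype was thus not absence of listed borders for many members.

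The distance between the strongest plus-strand and minus-strand borders of a peak, a measure of the footprint, was compared between clusters and other regions. Borders 29 to 31 bp apart marked 9.25% of 757 member peaks and 9.10% of others in WT at 6am, 5.83% and 6.24% at 6pm, and 13.8% and 12.9% after prednisolone. Borders 24 to 26 bp apart marked 5.42% and 5.43% in GRdim at 6am, 3.97% and 4.56% at 6pm, and 5.94% and 6.13% after prednisolone. Borders 10 to 12 bp apart marked 10.8% and 14.0% in WT after prednisolone, a difference of -3.26 points (-6.08 to 0.116). In the 6 libraries all 18 intervals of these differences include 0, so no difference in border spacing was detectable at this number of peaks.

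**Figure D5:**
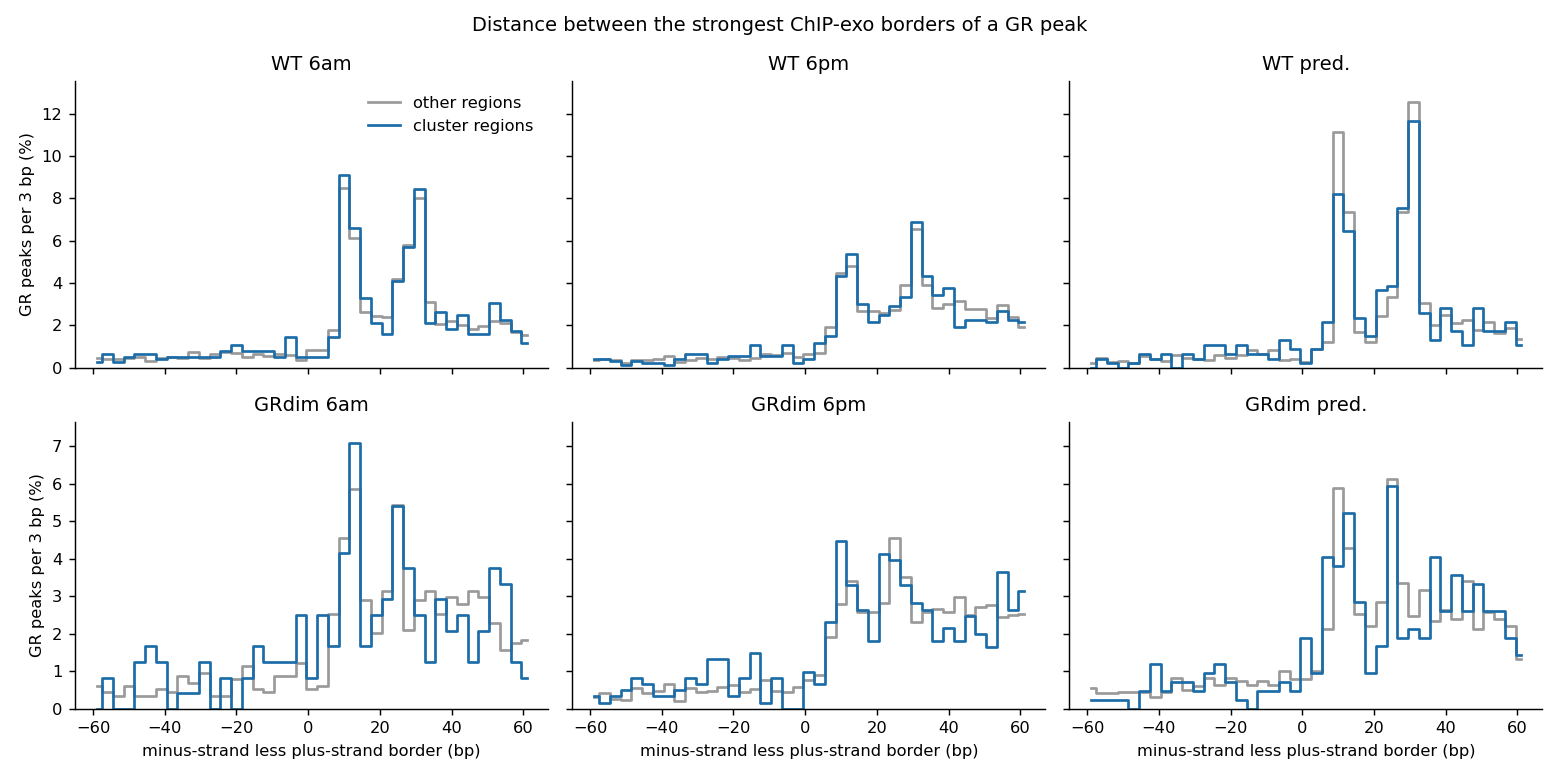
Percentage of GR peaks (y axis) by distance of the strongest minus-strand border from the strongest plus-strand border in bp (x axis, bins of 3 bp) for cluster regions (blue) and other regions (grey) in the 6 ChIP-exo libraries. In WT both sets have their highest bins near 10 and 30 bp, and the curves are less regular in GRdim, where 240 to 604 cluster peaks carry both borders.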

How the data were processed

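GR and C/EBPβ ChIP-seq and GR ChIP-exo of mouse liver were used. The 2 RNA polymerase II and 12 input samples were not analysed here. Per the submitters' processing notes, the tools were Bowtie and HOMER and the build was mm9, with roles, versions and thresholds not given in the sources used here. Each deposited ChIP-seq list holds intervals of 200 bp with a score by the authors. The ChIP-exo lists hold 10 bp borders with a deposited count of tags and the authors' RPM, per the file headers. A deposited height signal was not used.

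GR peaks were merged and chained as stated in the report. Peaks or borders overlapping a region by at least 1 bp were counted at it, and RPM values of those borders were summed. Border distances run from the strongest plus-strand to the strongest minus-strand border (most tags) at most 100 bp from a peak's centre. Shares have Wilson and differences Newcombe 95% intervals, which cover the counting of regions only. With 1 pool per condition there was no test over samples.

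The members, the clusters to be named and the alternatives were chosen with earlier results of these data known. Clusters named are the 10 with the most regions, the 5 with the highest WT score, the 5 without GRdim regions and with the highest score, the 3 each with the most GRdim-only, new and lost regions and the most C/EBPβ peaks per kb, and the cluster of 4 with the widest gap. Clusters without any C/EBPβ region were to be named, and none was found. Single regions were named after their values were seen. Planned gene lists and sequence motifs need the mm9 annotation and sequence, which were not used here. The code was tested on simulated data. The software was Python 3.11.15 with scipy 1.17.1, pandas 2.3.3, numpy 2.4.6 and, for figures, matplotlib 3.10.9.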

Additional observations from a re-analysis of the deposited data

How the results depend on the processing

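The number of members, 1772, is set by the rule: it was 647 with chaining at 3 kb, 3751 at 10 kb, 756 with at least 5 regions, 483 with the higher-scoring 50% of each GR list, 764 without the WT 6pm list and 298 with GR lists of equal length. The C/EBPβ differences kept their direction and their interval away from 0 in 37 of 52 recomputed values (any, 6am, 6pm and prednisolone). With GR lists of equal length they were -3.27, -3.32, -3.20 and -4.63 points, with the higher-scoring 50% of each C/EBPβ list -0.418, -1.01, 0.294 and -1.87 points, and with the nearest region over 1 kb away -1.81, -2.74, -0.957 and -2.74 points. At 10 kb they were -0.911 at 6am, -1.22 at 6pm and -1.02 points after prednisolone. Weighted by number of GR lists they were wider, at -6.74, -8.66, -6.64 and -8.42 points. The causes were not tested.

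The ChIP-exo differences kept their direction and, as in the report, an interval that includes 0 (any library) or leaves it out (single libraries) in 70 of 91 recomputed values. For any library the difference was 1.26 points at 10 kb, 1.28 with each chain counted once and 8.67 with borders of at least 20 tags. It was -0.274 with the higher-scoring 50% of each GR list, -0.331 weighted by number of lists and -0.851 weighted by WT 6pm score. Weighted by number of lists it was 0.870 in WT at 6am, 0.609 and 1.55 in GRdim at 6am and 6pm, and -2.16 in WT and -0.425 in GRdim after prednisolone. Weighted by WT 6pm score it was -1.61, 0.589 and -3.04 for the WT libraries of 6am, 6pm and prednisolone, and 1.31, 0.624 and 0.0711 in GRdim. With at least 20 tags it was 0.883 in GRdim at 6am. In WT after prednisolone it was 2.21 at 3 kb, 2.96 with the higher-scoring 50% of each GR list and 2.60 without the WT 6pm list. Weighting by score and the limit on the nearest region were chosen after seeing the data. No paired analysis was possible because each list is 1 pool of both replicates and no result comes from a test over samples. Lists with a lowest score leave out weak binding, which limits every statement on absence.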
